A study of Homo sapiens with 6 samples.

Results

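ATP-binding cassette (ABC) transporters are membrane proteins that spend ATP to move lipids, sterols, bile acids, conjugates, haem precursors or drugs across a membrane. All carry a conserved ATPase domain, and the human genes are sorted by sequence into lettered subfamilies. In liver they secrete bile across the canalicular membrane, load high density lipoprotein with cholesterol, and feed fatty acids into peroxisomes, and several make tumour cells resistant to drugs. The 39 genes described here were the ABC transporters named on the list used, of 23593 genes on the array. They were found by their symbol in the array's own annotation, as 91 features, and each gene was represented by its brightest feature, judged by the mean of log2 values over all 6 arrays. There were 12 genes of subfamily A, 8 of B, 11 of C, 3 of D and 5 of G.

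The samples were cultures of HCC-LM3, a human hepatocellular carcinoma cell line that metastasises readily when grafted into mice. The shASPP2 group was infected with a lentivirus carrying a short hairpin RNA against ASPP2, the p53-binding and polarity protein encoded by TP53BP2, and the shNon group with a control shRNA lentivirus. Both groups therefore carried a lentiviral vector for the week before RNA was collected, and were grown in DMEM with 10% FBS. Each group had 3 samples from separate cultures of this 1 cell line, each hybridised to its own 1-colour (Cy3) array, and whether more than 1 hairpin sequence was used is not given in the sources used here.

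Values are intensities on a linear scale, as the authors deposited them after RMA. They measure RNA from whole cultures, so fewer cells of a kind and less RNA per cell cannot be told apart. A row of 2508 random-sequence probes gave the level of unspecific signal, 30.6 ± 0.170 in shASPP2 and 32.6 ± 0.752 in shNon (SD, n = 3). A gene was called expressed in a group where its mean was over 2 times that row, 61.2 in shASPP2 and 65.1 in shNon. TP53BP2 itself was read first. It had 228, 216 and 147 in shASPP2, against 332, 488 and 452 in shNon, so that the groups did not overlap (log2 fold change -1.11, SE 0.249, limma adjusted p = 0.204). Arrays correlated at r = 0.983 to 0.985 within shASPP2 and 0.958 to 0.972 within shNon, where array 3 had the lowest correlations. Between the groups r was 0.960 to 0.978, and shNon array 2 correlated better with each shASPP2 array than with the other shNon arrays, so the arrays as a whole did not separate by group. Of 11 hepatocyte markers, 6 were over the level in shASPP2 and 5 in shNon. Albumin (ALB) was barely over it at 68.4 and 86.5, and APOA1, APOB, TTR, SERPINA1 and AHSG were under it in both groups. HNF4A, APOH, TF and FOXA1 were over it in both, and AFP in shASPP2 alone.

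The promoters of ABCA1 and ABCA7 are shown because these genes had the lowest shASPP2 levels relative to shNon of the 39. Both windows run from 250 bases before to 50 bases after the RefSeq transcription start (GRCh38.p14). ABCA1 lies at chr9:104928106-104928405 on the minus strand and ABCA7 at chr19:1039857-1040156 on the plus strand. Capitals mark every match, on either strand, to the GC box GGGCGG, the E-box CACGTG, the TATA box TATAAA or a direct repeat of nuclear receptor recognition sites (DR4) searched as AGGTNA, a spacer NNNN and NGGTNA in a row.
ABCA1: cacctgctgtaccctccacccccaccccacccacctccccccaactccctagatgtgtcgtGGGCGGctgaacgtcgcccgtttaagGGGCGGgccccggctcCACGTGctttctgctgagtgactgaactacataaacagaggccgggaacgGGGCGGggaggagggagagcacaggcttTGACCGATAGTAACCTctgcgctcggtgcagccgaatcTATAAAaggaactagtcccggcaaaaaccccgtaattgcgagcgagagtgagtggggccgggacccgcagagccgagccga
ABCA7: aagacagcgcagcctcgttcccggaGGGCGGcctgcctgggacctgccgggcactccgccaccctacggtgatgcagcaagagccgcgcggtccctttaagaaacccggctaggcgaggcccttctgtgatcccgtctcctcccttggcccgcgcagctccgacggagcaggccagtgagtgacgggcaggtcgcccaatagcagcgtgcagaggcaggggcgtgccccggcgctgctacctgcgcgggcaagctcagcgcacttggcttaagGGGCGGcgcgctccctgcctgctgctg

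The ABCA1 window held 3 GC boxes, starting at -189, -163 and -97 from the transcription start, an E-box at -147, a TATA box from -31 to -26, and 1 DR4 on the reverse strand from -69 to -54. The ABCA7 window held 2 GC boxes, at -225 and 24, and no match to the other motifs. No matches overlapped. DR4 is the form of element to which liver X receptors bind with RXR, and the ABCA1 promoter is a textbook case of one; the pattern was chosen knowing this. It occurred in 0.225% of all 35116 promoter windows of this length, against 45.0% for the GC box, 7.26% for the E-box and 11.5% for the TATA box. RefSeq windows matched 31 of the 39 genes, and ABCA1 was the only 1 of those 31 with a DR4 match. A match of letters is a description and does not show a bound site.

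HCC-LM3 cells expressed part of the family. In shASPP2, 22 of 39 genes (56.4%) were over 2 times the random-probe row, and in shNon 23 (59.0%), close to the 60.9% and 60.2% of all 23593 genes that were over it in those groups. In at least 1 group it was 23 (59.0%), against 63.8% of all genes. The same 22 genes were over it in both groups, and 20 were over it on all 6 arrays. The exception was ABCC6, whose product is needed to keep soft tissue from calcifying. On the feature used it lay just inside the level in shNon at 67.5 ± 32.3 and just outside it in shASPP2 at 56.8 ± 11.3. Only 1 array of each group was over the level there. A second ABCC6 feature went the other way, with 62.8 in shASPP2, over the level, and 57.1 in shNon, under it. ABCA10, whose substrate is poorly known, was the nearest gene inside in shASPP2, at 68.3 ± 13.3. ABCC12, a little-studied relative of the drug exporter ABCC11, was the nearest outside in shNon at 62.2 ± 26.0. ABCC6 has near-identical pseudogene copies, so its feature may not separate them.

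**Figure D1:**
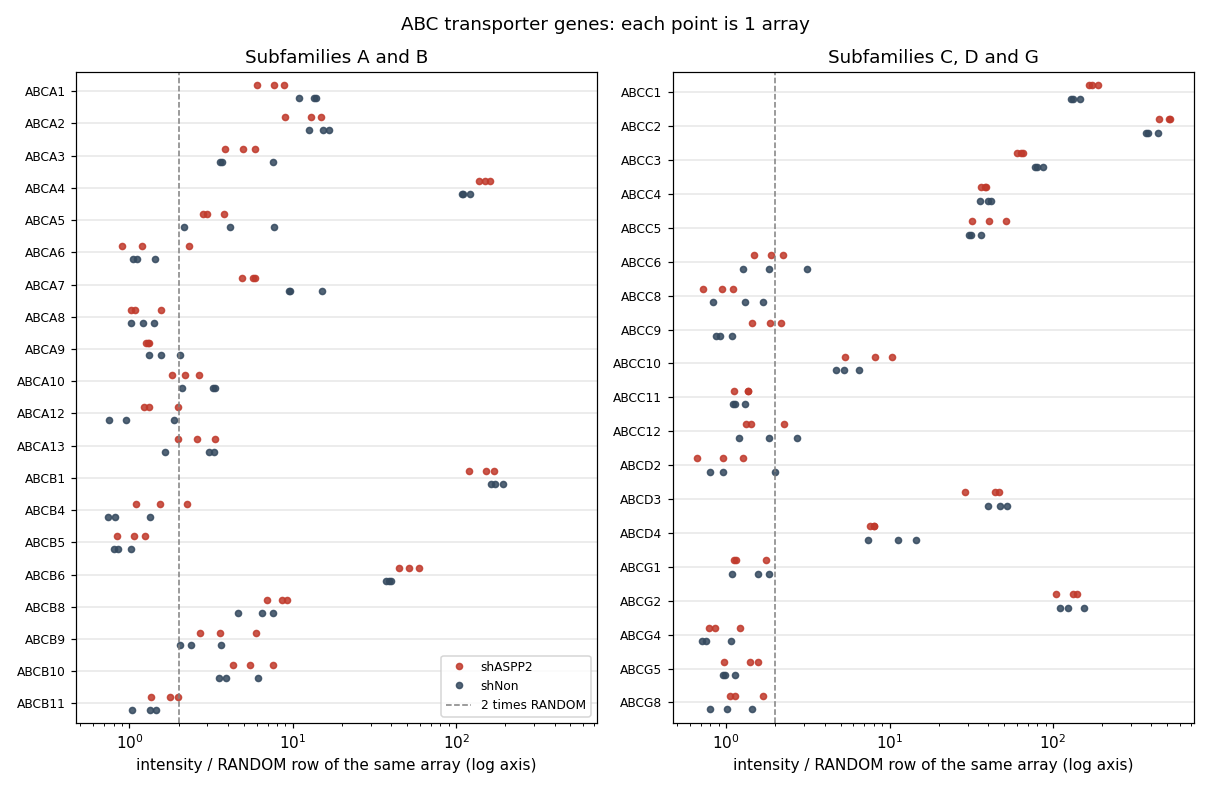
Intensity of each ABC transporter gene divided by the random-probe row of the same array (log axis), 1 point per array, shASPP2 in red above shNon in dark blue, with a dashed line at 2 times that row. Of 39 genes, 22 had means right of the line in both groups, and ABCB4, ABCB11, ABCG1, ABCG5 and ABCG8 had means left of it in both.

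By substrate class, the counts over the level were as follows, where 63.8% of all genes were over it in at least 1 group. Of 9 drug and conjugate exporters, 8 were over the level in both groups, with ABCC11 as the exception. Of 7 genes for bile secretion, 3 were over it, ABCB1, ABCC2 and ABCG2, which export drugs, conjugates and urate. The bile salt pump ABCB11, the phosphatidylcholine floppase ABCB4 and the sterol exporters ABCG5 and ABCG8 were not. Of 5 sterol efflux genes, only ABCA1 was over it. Of 6 genes for phospholipids and other lipids, 4 were over it, and ABCA12 and ABCB4 were not. Among genes of peroxisomes, lysosomes and mitochondria 6 of 7 were over it, with ABCD2 as the exception. No test was made between these classes, whose lists share genes.

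No ABC transporter gene passed the test. Of the 39, 0 had a limma adjusted p under 0.05 over all genes, where 0.102% of all genes did (0.0424% higher in shASPP2 and 0.0593% lower). Before adjustment 4 had a p under 0.05 (10.3%, against 11.5% of all genes), of which 1 gene was higher in shASPP2 (2.56%, against 5.54% of all genes) and 3 were lower (7.69%, against 5.93%). The groups' arrays did not overlap for 9 genes (23.1%, against 18.8% of all genes), made up of 4 that were higher (10.3%, against 9.30% of all genes) and 5 that were lower (12.8%, against 9.52%). These shares are near those of the array as a whole and are no result about the family. The median log2 fold change of the family was -0.04, against 0.01 for all genes, with 19 genes above 0 and 20 below. Leaving out shNon array 1 made the lower count at an unadjusted p under 0.05 6. The higher count became 2 when any of 4 arrays, namely 1 and 3 of either group, was left out. Of all genes, 2771 had such a p in either direction without shNon array 1, against 2705 with all arrays. Without any of those 4 arrays it was 1686 to 2782. With limma's trend and robust variance 1 member, ABCA7, passed an adjusted p of 0.05, lower in shASPP2, where 2.14% of all genes did (0.996% higher and 1.15% lower). An exact permutation test of 3 against 3 arrays cannot go below p = 0.1 (two-sided), which is its value for any gene without overlap.

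**Figure D2:**
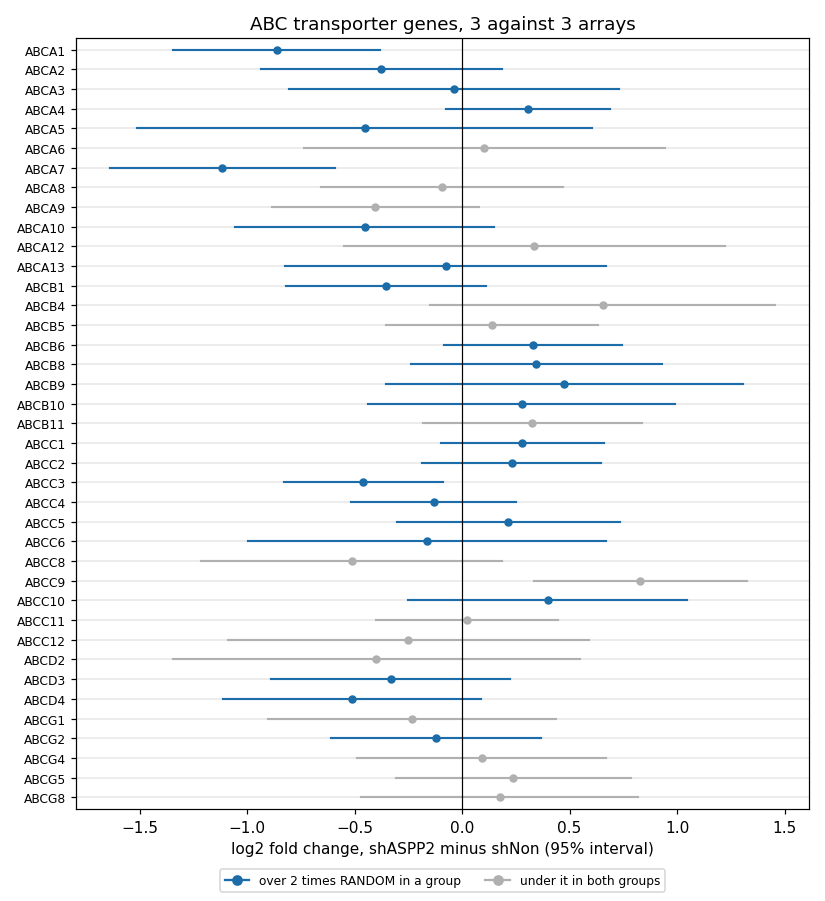
Log2 fold change of each ABC transporter gene, shASPP2 minus shNon, with its 95% interval from limma (3 arrays a group), in blue where the gene was over 2 times the random-probe row in a group and in grey where it was under it in both. The intervals of ABCA1, ABCA7 and ABCC3 lie below 0 and that of ABCC9 above 0, and all others cross 0.

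Among the lipid transporters of subfamily A, ABCA7 and ABCA1 stood lowest in shASPP2 relative to shNon. ABCA7, a close relative of ABCA1 that moves phospholipids and takes part in phagocytosis, had 150, 172 and 180 in shASPP2, against 314, 478 and 315 in shNon. Every shASPP2 array was thus below every shNon array, with a wide gap, and shNon array 2 was the highest. The log2 fold change was -1.12 (SE 0.222, 95% interval -1.64 to -0.59), which is 46.2% of the shNon level. Limma's adjusted p was 0.178, or 0.0291 with trend and robust variance (0.0291 to 0.531 over the alternatives). The array had a single feature for ABCA7 (chromosome 19, 992244 to 1016571, hg18), so no second measurement was at hand.

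ABCA1, which hands cholesterol and phospholipid to apolipoprotein A1, had 236, 268 and 186 in shASPP2, against 452, 428 and 364 in shNon. Again the groups did not overlap. The difference was -0.86 log2 (SE 0.205, 95% interval -1.34 to -0.38, limma adjusted p = 0.223). ABCA1 (chromosome 9, 106583103 to 106730257, hg18) had 3 features, and the other two gave -1.02 and -1.27, each also without overlap. On the feature with -1.27, the shASPP2 arrays had 146, 125 and 167 and the shNon arrays 201, 505 and 418, so that shNon array 1 lay close to the shASPP2 values.

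ABCA4, known as the flippase that clears retinoid from photoreceptor discs, stood at 149 times the random-probe row in shASPP2 and 113 times in shNon in this liver line. It had 4219, 4593 and 4922 in shASPP2, against 3555, 3853 and 3673 in shNon. All 3 shASPP2 arrays were the higher ones, by 0.31 log2 (SE 0.162, 95% interval -0.08 to 0.69, limma adjusted p = 0.524). The second ABCA4 feature was also over the level, at 3142 in shASPP2 and 2589 in shNon, with a log2 fold change of 0.27 and overlapping groups.

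In the rest of subfamily A the groups overlapped, except for ABCA9. The difference for ABCA2, a lipid transporter of lysosomes abundant in brain, was -0.38 log2 (SE 0.238, limma adjusted p = 0.591). ABCA3, which packs surfactant lipid in the lung, had -0.04 (SE 0.325), but its other feature gave -1.18 and had 34.8 to 73.8 in shASPP2 and 66.4 to 172 in shNon, so the features disagreed in size. ABCA5, ABCA6, ABCA8, ABCA9 and ABCA10 lie side by side on chromosome 17 between 64375024 and 64834835 (hg18), and of these only ABCA5 and ABCA10 were over the level in both groups. ABCA9 had 38.3 to 40.5 in shASPP2, against 43.6 to 66.3 in shNon, under the level by its mean in both groups. ABCA6 (0.10 log2) and ABCA8 (-0.09 log2) were under it too. ABCA5 and ABCA10 each had -0.45 log2 (SE 0.448 and 0.256), and the second ABCA10 feature had the opposite sign, 0.47. For ABCA5, 3 of 5 features were over the level. Of its 4 other features 3 shared the sign of the one used. The remaining one had 0.21 log2, at 127 in shASPP2 and 106 in shNon. The skin ceramide transporter ABCA12 was under it in both groups. ABCA13, the longest of the subfamily and of unsettled function, was over it at 80.7 and 86.6, yet only on 1 of its 5 features.

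Of the drug efflux pumps, none passed the test. ABCB1, the multidrug pump P-glycoprotein, had 4649, 5215 and 3691 in shASPP2, against 5318, 5509 and 6383 in shNon. Its groups did not overlap, though the shASPP2 array 2 value was near the lowest shNon value. The log2 fold change was -0.35 (SE 0.198, 95% interval -0.82 to 0.11, limma adjusted p = 0.543), and the second feature gave -0.40, also without overlap. The breast cancer resistance protein gene ABCG2 had 4086, 3154 and 4317 in shASPP2, against 4019, 4891 and 3661 in shNon, overlapping throughout. Its interval, -0.61 to 0.36 log2 around -0.12, leaves room for a difference of either sign, and without shASPP2 array 2 the value was 0.014.

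Among the multidrug resistance proteins of subfamily C, ABCC3 and ABCC1 stood on opposite sides of 0. ABCC3, which exports bile acid and drug conjugates across the basolateral membrane, had 1939, 1839 and 2004 in shASPP2, against 2529, 2750 and 2668 in shNon. Both groups were tight and lay apart. The difference was -0.46 log2 (SE 0.157, 95% interval -0.83 to -0.09, limma adjusted p = 0.356), on the only feature of this gene (chromosome 17, 46067226 to 46124062, hg18). ABCC1, an exporter of glutathione conjugates and drugs, had 5080, 5698 and 5294 in shASPP2, against 4196, 4654 and 4378 in shNon. Here every shASPP2 array was the higher, by 0.28 log2 (SE 0.160, 95% interval -0.10 to 0.66, limma adjusted p = 0.555). The other two ABCC1 features gave 0.37 each, with overlapping groups.

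ABCC2, the canalicular exporter of bilirubin and drug conjugates, had 15902, 13609 and 15826 in shASPP2, against 12412, 11734 and 14548 in shNon. The groups overlapped, because shNon array 3 lay above shASPP2 array 2. The difference was 0.23 log2 (SE 0.177, 95% interval -0.19 to 0.65, limma adjusted p = 0.651). ABCC4 and ABCC5, exporters of cyclic nucleotides and nucleotide-like drugs, had log2 fold changes of -0.13 (SE 0.163) and 0.22 (SE 0.221). All 4 ABCC4 features were over the level, and the one used had 1155 ± 32.7 in shASPP2 and 1269 ± 110 in shNon. For ABCC5, 2 of 3 features were over the level. ABCC10, a broad drug exporter, had 0.40 (SE 0.275), with 163 to 316 in shASPP2, against 154 to 205 in shNon. ABCC11, an exporter of lipophilic anions, and ABCC12 had 0.02 and -0.25 log2 and were under the level in both groups.

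The potassium channel subunits of subfamily C were under 2 times the random-probe row in both groups. ABCC9, a sulphonylurea receptor of heart and vascular muscle, had 44.1, 65.7 and 56.9 in shASPP2, against 35.2, 29.0 and 28.8 in shNon. This was the 1 member higher at an unadjusted p under 0.05 (0.83 log2, SE 0.210, limma adjusted p = 0.246). Only shASPP2 array 2 was over 2 times the random-probe row, and the other two ABCC9 features gave 0.09 and 0.14 log2, so that the gene was not measured as expressed. ABCC8, the pancreatic beta cell counterpart, was at 28.2 ± 5.92 in shASPP2 and 41.3 ± 13.2 in shNon.

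**Figure D3:**
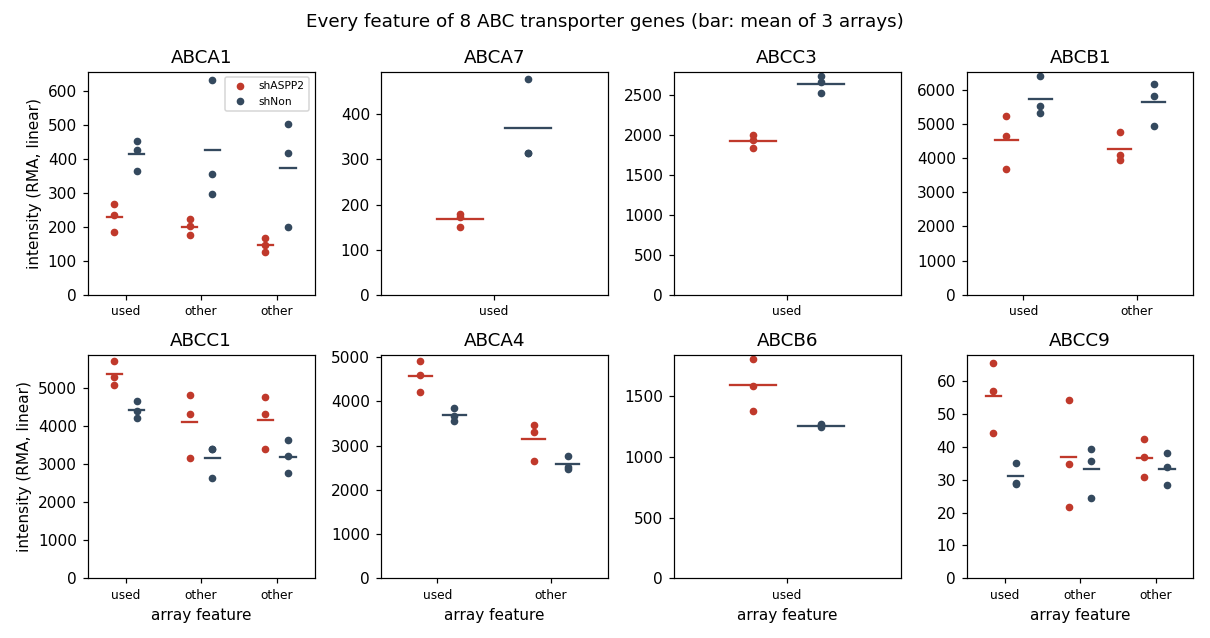
Intensity (RMA, linear axis from 0) of every array feature of 8 ABC transporter genes, shASPP2 in red left of shNon in dark blue, 1 point per array and a bar at the mean of 3 arrays; "used" is the feature that stood for the gene. ABCA1 was lower in shASPP2 on all 3 of its features, and the ABCC9 difference appeared on 1 of 3.

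The bile salt and biliary lipid transporters were not measured as expressed. ABCB11, the bile salt export pump, had 54.2, 60.0 and 41.5 in shASPP2, against 43.3, 45.8 and 34.4 in shNon, with no array over the level. ABCB4, which flips phosphatidylcholine into bile, had 47.0, 68.0 and 33.9 in shASPP2, against 26.6, 23.4 and 44.4 in shNon. Of these arrays only shASPP2 array 2 was over the level. The second ABCB4 feature had the opposite sign, at -0.22 against 0.65 log2. ABCB4 lies 23198 bases from ABCB1 on chromosome 7 (hg18), so a gene under the level sits beside one over it. ABCG5 and ABCG8, which form 1 heterodimer that secretes plant sterols and cholesterol, are 143 bases apart on chromosome 2 (hg18). ABCG5 had 48.0, 29.3 and 43.2 in shASPP2, against 37.2, 30.4 and 32.8 in shNon. ABCG8 had 34.6, 50.8 and 32.6 in shASPP2, against 33.0, 45.5 and 26.5 in shNon. Neither partner was over the level on any array. ABCG1, which exports cholesterol from macrophages to lipoprotein, had 35.4, 34.0 and 54.1 in shASPP2, against 59.5, 34.3 and 51.8 in shNon, also under the level on every array. ABCG4, its close relative in brain, and ABCB5, a pump known from melanoma, were under it on every array as well, with 0.09 and 0.14 log2.

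Members of the mitochondrion, lysosome and peroxisome were expressed with few exceptions. ABCB6, which moves porphyrins, had 1377, 1808 and 1585 in shASPP2, against 1260, 1268 and 1243 in shNon. The shNon arrays were nearly alike, and each shASPP2 array lay above them, by 0.33 log2 on average (SE 0.175, 95% interval -0.08 to 0.74, limma adjusted p = 0.525). ABCB8 and ABCB10 of the mitochondrial inner membrane had 0.35 (SE 0.247) and 0.28 (SE 0.303), and the lysosomal peptide transporter ABCB9 0.48 (SE 0.352). The second ABCB10 feature gave -0.29, the opposite sign. The other ABCB8 features gave -0.05 and 0.72 log2, and the other ABCB9 features ran from -0.22 to 0.77. On the features with 0.72 and 0.77 the groups did not overlap. ABCD3, the peroxisomal importer PMP70, had -0.33 (SE 0.236), and ABCD4, which helps cobalamin out of lysosomes, -0.51 (SE 0.255). For ABCD4 the shASPP2 arrays were tight at 234 to 247 while the shNon arrays ran between 242 and 457. The other ABCD4 features gave -0.33, -0.07 and 0.28 log2, so the features disagreed in sign. ABCD2, a very-long-chain fatty acid importer, was at 29.3 ± 9.15 in shASPP2 and 40.9 ± 22.0 in shNon, under the level.

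By subfamily, 7 of 8 members of B had fold changes above 0, with a median of 0.33 log2, and 9 of 12 members of A had them below 0, with a median of -0.23. Subfamily C had a median of 0.02, D of -0.40 and G of 0.09. These counts are descriptions and were not tested, and members under the level in both groups enter them. Of the 23 genes over the level in a group, 18 had more than 1 feature, and in 9 of those 18 all other features had the sign of the one used. For 16 of the 23 the 95% interval of the difference lay within 1 log2 unit of 0.

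Genes that work with these transporters were read from 4 lists outside the family, 35 genes in all. Of these, 0 passed a limma adjusted p of 0.05, where 0.102% of all genes did. With trend and robust variance 4 of the 35 passed, where 2.14% of all genes did (0.996% higher and 1.15% lower). They were PPARA (adjusted p = 0.00028) and SLC51B (0.00618), lower in shASPP2, and MYO5B (0.000946) and BAAT (0.00558), higher. The lists were chosen with earlier results of these data known, so the count of 4 of 35 is no result about them. Of 11 receptors and factors that control ABC genes, 1 was higher and 2 were lower at an unadjusted p under 0.05 (5.54% and 5.93% of all genes). PPARA, the fibrate receptor, had 1165 ± 150 in shASPP2 and 2483 ± 243 in shNon (log2 fold change -1.10, SE 0.184, limma adjusted p = 0.124). NR1H3, the liver X receptor alpha that drives ABCA1, had -0.55 (SE 0.197, adjusted p = 0.369). Of 10 solute carriers for bile acids and drugs, 0 were higher and 3 lower (5.54% and 5.93% of all genes). The third of these, SLCO1B3, a bile acid and drug importer, was under the level in both groups and its arrays overlapped. SLC51B, a subunit of the basolateral bile acid exporter, had -1.32 (SE 0.291, limma adjusted p = 0.201). SLC47A1, a drug and cation exporter, had -0.86 (SE 0.244).

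Of 6 genes of bile acid synthesis, 1 was higher and 2 were lower at an unadjusted p under 0.05 (5.54% and 5.93% of all genes). BAAT, which conjugates bile acids to glycine or taurine, had 0.94 (SE 0.164, limma adjusted p = 0.128). CYP7A1, the rate-limiting enzyme of bile acid synthesis, had -0.79 (SE 0.257). It and the other lower gene, CYP8B1, which sets the share of cholic acid, were under the level in both groups. Of 8 genes that hold transporters at the apical membrane, 2 were higher and 1 lower (5.54% and 5.93% of all genes), with the recycling motor MYO5B at 0.92 (SE 0.185) and the small GTPase gene RAB11A at -0.63 (SE 0.261).

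**Figure D4:**
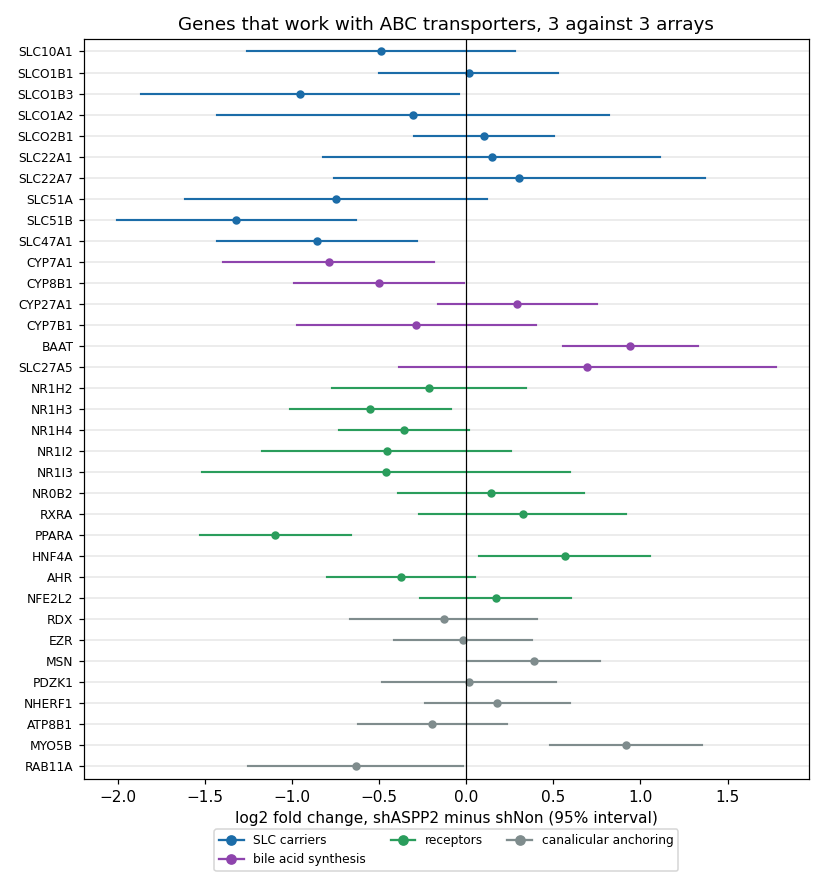
Log2 fold change, shASPP2 minus shNon, with its 95% interval from limma (3 arrays a group) for 35 genes that work with ABC transporters, coloured by list. The intervals of PPARA, NR1H3, SLC51B, SLC47A1, SLCO1B3, CYP7A1, CYP8B1 and RAB11A lie below 0. Those of HNF4A, BAAT, MYO5B and MSN lie above 0, and all others cross 0.

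Markers of other cell types were read the same way, where 60.9% of all genes were over the level in shASPP2 and 60.2% in shNon. Over it were 4 of 6 fibroblast and stellate markers in each group, 1 of 5 endothelial markers in shASPP2 and 2 of 5 in shNon, and 1 of 5 leukocyte markers in each group. The summed endothelial level was 987 to 1220 in shASPP2 and 2025 to 2137 in shNon, nearly all of it PECAM1, while VWF, KDR and TEK were under the level. Hepatocyte markers summed to 6874 to 8132 in shASPP2 and 6470 to 7695 in shNon, most of it HNF4A, APOH and TF. By their means, HNF4A was higher in shASPP2 (3794, against 2562 in shNon), and APOH (2174 against 2402) and TF (908 against 1192) were lower. FOXA1, a smaller part of the sum, was also lower, at 314 in shASPP2 and 589 in shNon, without overlap. Its log2 fold change was -0.91 (SE 0.193, limma adjusted p = 0.191). With trend and robust variance it was the only 1 of the 11 past 0.05 (adjusted p = 0.0229), where 2.14% of all genes were. The part of either sum in the values of ABCA1, ABCA7 and ABCC3 was not tested.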

How the data were processed

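RNA of 6 HCC-LM3 cultures, 3 shASPP2 and 3 shNon per the labels, was measured on 1-colour NimbleGen arrays. The authors deposited 1 linear intensity per feature and array, which per the submitters' processing notes came from RMA. Its version and settings, the scanner, slides and scan dates: not given in the sources used here. RMA compresses differences between dim features. Of 45033 features, 45031 had 3 probes, and the deposited value table differed in 0 cells. Symbols were updated through gene identifiers or accessions in RefSeq (GRCh38.p14), which named 38916 and 78 features; 3954 kept the file's name and 2085 stayed unnamed. Array coordinates are on hg18.

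Log2 intensities, 1 feature a gene, were fitted with limma 3.58.1 in R 4.3.3 (lmFit, eBayes, group only, two-sided) over 23593 genes, with Benjamini-Hochberg adjustment over all of them and 0.05 as the threshold. Every log2 difference has shASPP2 on top. The fit was tested on simulated data, where it called most of the large changes put in and few of the small ones. The number of arrays limits the precision. Alternatives were other scaling, a filter on dim genes, other variance models, a replicate block, other features and leaving out each array. Members and lists were chosen with earlier results of these data known. The rule for values in every sample took members at an unadjusted p under 0.05, expressed members without overlap, and 10 bile, drug and sterol transporters. Other members are given by range and count, and those singled out among them were chosen after their values were seen. From each of 4 outside lists the 2 genes with the smallest p were named, and 2 further lists are not reported here.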

Additional observations from a re-analysis of the deposited data

How the results depend on the processing

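The value table gave the same values as the per-sample files. The count of 0 family genes past the threshold was 1 with trend and robust variance (ABCA7, adjusted p = 0.0291), which also put TP53BP2 past it (-1.11, adjusted p = 0.0256), and 0 under every other alternative run. Genes higher at an unadjusted p under 0.05 numbered 0 without dim genes, 4 with trend and robust variance, and 1 to 2 when single arrays were left out. Lower ones numbered 5 with the mean of all features and 2 to 6 when single arrays were left out. In either direction, 2705 of all 23593 genes had such a p in the main fit, and 2424 of 15063 without dim genes. With trend and robust variance 3067 did, with the mean of all features 2939, and 1686 to 3106 when single arrays were left out. Expressed genes numbered 20 to 28 in shASPP2 and 19 to 25 in shNon over all alternatives, among them 1 chosen after seeing the data, which counts any feature of a gene. The family median lay between -0.12 and 0.04. Signs turned for ABCG2 (0.014 without shASPP2 array 2; -0.22 to 0.014 when single arrays were left out) and ABCG8 (-0.0085 without shNon array 3, -0.025 without shASPP2 array 2; -0.025 to 0.38), and for no other gene given in every sample. Genes past the threshold on the whole array numbered 24, against 84 without dim genes, 506 with trend and robust variance, 40 with the mean of all features, 0 with the block and 0 to 6 when single arrays were left out. With a replicate block no family gene passed (ABCA7 adjusted p = 0.485) and no gene of the array did. Arrays of the same number share only that number, with correlations of deviations of 0.0561, -0.0756 and -0.126, and not every array was closest to its own number.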
